A study of Drosophila melanogaster with 12 samples.

Results

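Heads of flies with strong neuronal knockdown of *ND-75* (ND-75 KDstrong, 4 libraries) were compared with heads of flies with weak knockdown of the same gene (ND-75 KDweak, 4 libraries). These are 8 of the 12 libraries of the series, and every feature of the deposited count table of this comparison was taken, 17041 of the 17589 features of the series. Of these, 10638 had enough reads to be tested and 6403 did not. *ND-75* encodes a core subunit of mitochondrial complex I, and the comparison addresses how the transcriptome of the head differs between a strong and a weak RNAi line against it. The paper gives as a limitation that the knockdown efficiency and the degree of complex I deficiency in neurons were not known for either line.

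All flies were 2 days old, and RNA for a library came from 20 pooled heads, of which 10 were male and 10 female. Flies of both groups carried the nSyb-Gal4 driver, which is active in neurons, and an *ND-75* RNAi transgene (nSybGal4/ND-75 strong RNAi or nSybGal4/ND-75 weak RNAi). The 4 control libraries, whose levels are given here only beside those of the knockdown groups, came from nSybGal4/w[1118] flies. Per the methods of the study, the driver was combined with the temperature-sensitive repressor Tub-Gal80ts, KDstrong used the short hairpin line HMS00853 and KDweak the long hairpin line KK108222. Each strength of knockdown was thus represented by 1 RNAi line and no control RNAi line was sequenced, so knockdown strength, transgene and strain background cannot be told apart. Whether the 4 pools of a group came from separate crosses is not stated, and the p-values measure the spread between pools. In RNA from whole heads, fewer cells of a type and less RNA per cell cannot be told apart.

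Complex I oxidises NADH and feeds electrons into the respiratory chain. When it is impaired, cells can regenerate NAD+ by reducing pyruvate to lactate with lactate dehydrogenase, and mitochondrial damage in flies is known to activate transcription factors such as ATF4 (*crc* in *Drosophila*). A fly head holds brain, eyes, fat body, hemocytes, muscle, trachea and the epidermis that lays down the cuticle, so genes of cells that do not express the RNAi transgene are measured along with those of neurons.

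The 8 libraries held between 19309456 and 34169998 counts. A first principal component with 55.4% of the variance separated the groups. One library of each group stood apart from the rest of its group. KDstrong replicate 4 lay alone on the second component (20.2% of the variance). Its median deviation from the mean of all 8 libraries was 0.25 on the log2 scale for the shortest 2128 features and -0.29 for the longest 2128. KDweak replicate 2 lay alone on the third component (11.4%). Their mean correlations with their own groups were 0.978 and 0.984, against 0.986 to 0.992 in the other 6 libraries. Counts are therefore also given without both libraries, an alternative that was added after the data were seen. Markers of neurons and of glia were present in every library (12 neuronal markers, 2010 to 3765 CPM, that is counts scaled to a common library total in KDstrong and 2944 to 3189 in KDweak; 10 glial markers, 3489 to 4096 and 3640 to 3822).

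The targeted gene did not separate the groups. The level of *ND-75* (X:8248651-8251687, release 6 of the genome) was 552, 535, 459 and 650 CPM in KDstrong replicates 1 to 4, and 634, 648, 620 and 562 CPM in KDweak replicates 1 to 4. Both groups lay below the control mean of 947 ± 303 CPM (SD, n = 4), and their ranges overlapped. In control replicate 3 the nuclear complex I genes summed to 12421 CPM, against 6114.6 to 7277.5 CPM in control replicates 1, 2 and 4. The control mean and SD may therefore rest in part on that library. The log2 fold change of *ND-75*, KDstrong minus KDweak, was -0.18 ± 0.12 (SE) with an adjusted p of 0.432 in edgeR's quasi-likelihood test. The count of the targeted mRNA in whole heads thus does not by itself tell the strong from the weak line.

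Many genes nevertheless differed between the groups, and most of those that differed were higher with strong knockdown. At an adjusted p below 0.05, 870 of the 10638 features tested were higher in KDstrong (8.18%) and 329 were lower (3.09%). The levels of the groups did not overlap in 830 of the higher and 303 of the lower features, and over all features tested KDstrong lay entirely above KDweak in 11.6% and entirely below in 6.33%. Among higher features the median log2 fold change was 1.17, and 217 were higher by at least 2 on the log2 scale. Among lower features the median was -0.88 and 40 were lower by at least 2. Higher protein-coding genes had a median of 9.41 FPKM, the authors' measure of level per transcript length, over the 8 libraries and lower ones 15.6, against 10.1 in all those tested. Short features were called higher more often than long ones (11.1% of the shortest 2128, 5.64% of the longest 2128).

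Without KDstrong replicate 4 and KDweak replicate 2 the counts were 1394 higher and 932 lower. The lower count also moved by over 1.5 times when single libraries were left out: it was 651 without KDstrong replicate 4, 219 without KDstrong replicate 2, and 203, 192 and 189 without KDweak replicates 1, 3 and 4. Against the control, the same test found 187 higher (1.78%) and 62 lower (0.589%) features in KDstrong, and 267 higher (2.56%) and 414 lower (3.98%) in KDweak. Control replicate 3, with its high complex I sum, was included in both control comparisons.

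**Figure D1:**
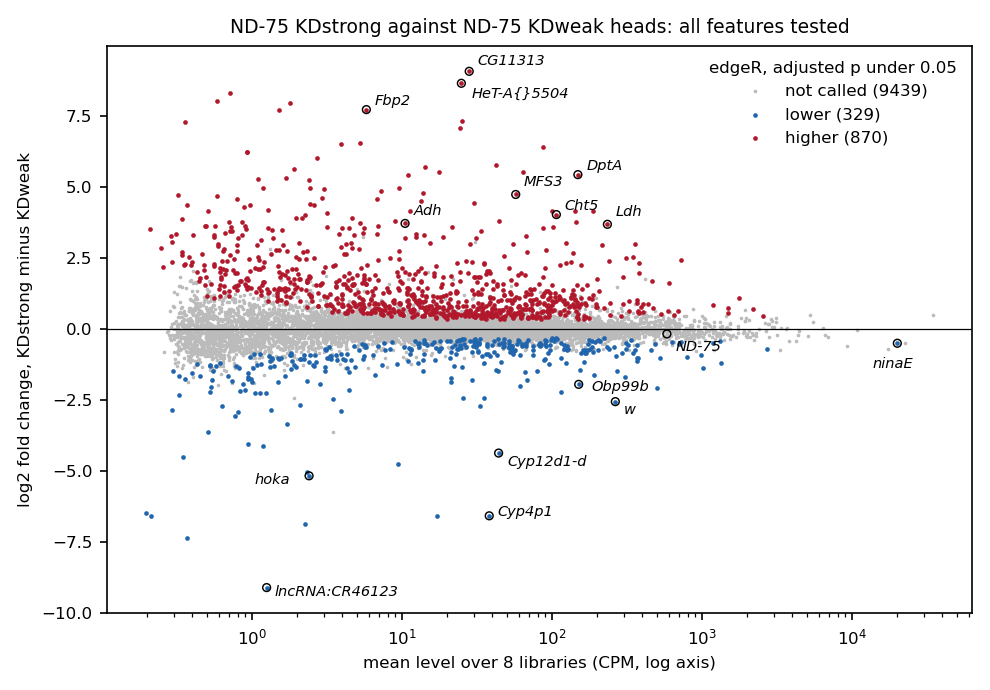
Log2 fold change of each of the 10638 features tested (KDstrong minus KDweak, vertical) against its mean level over the 8 libraries (CPM, log axis). Red points are the 870 features higher in KDstrong, blue points the 329 lower and grey points the rest, and the circled genes are described in the text; most called features lie above 0.

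Genes for a sugar transporter, lactate dehydrogenase and alcohol dehydrogenase were among the largest differences. *MFS3* (2L:1143201-1147395), which encodes a sugar transporter, had 116, 102, 108 and 116 CPM in KDstrong and 2.96, 5.43, 4.16 and 3.9 CPM in KDweak. All 4 KDstrong libraries lay far above all KDweak libraries, which were at the control level (4.37 ± 0.57 CPM). The log2 fold change was 4.74 ± 0.18 (adjusted p = 1.04e-06), the smallest p of all features. *Ldh* (3L:6259105-6262694), lactate dehydrogenase, had 485, 404, 439 and 409 CPM in KDstrong, and 15.5, 98.6, 9.32 and 10.1 CPM in KDweak. The groups did not overlap, but KDweak replicate 2 was several times above the other KDweak libraries and above the control (24.8 ± 6.38 CPM). *Ldh* was thus higher in KDstrong by 3.69 ± 0.75 on the log2 scale (adjusted p = 0.00993). *Adh* (2L:14615552-14618902), alcohol dehydrogenase, had 17.1, 18.7, 19.3 and 22.9 CPM in KDstrong against 1.78, 0.666, 2.44 and 0.87 CPM in KDweak, with a log2 fold change of 3.72 ± 0.33 (adjusted p = 0.000126). KDweak again lay at the control level of 1.23 ± 0.23 CPM.

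**Figure D2:**
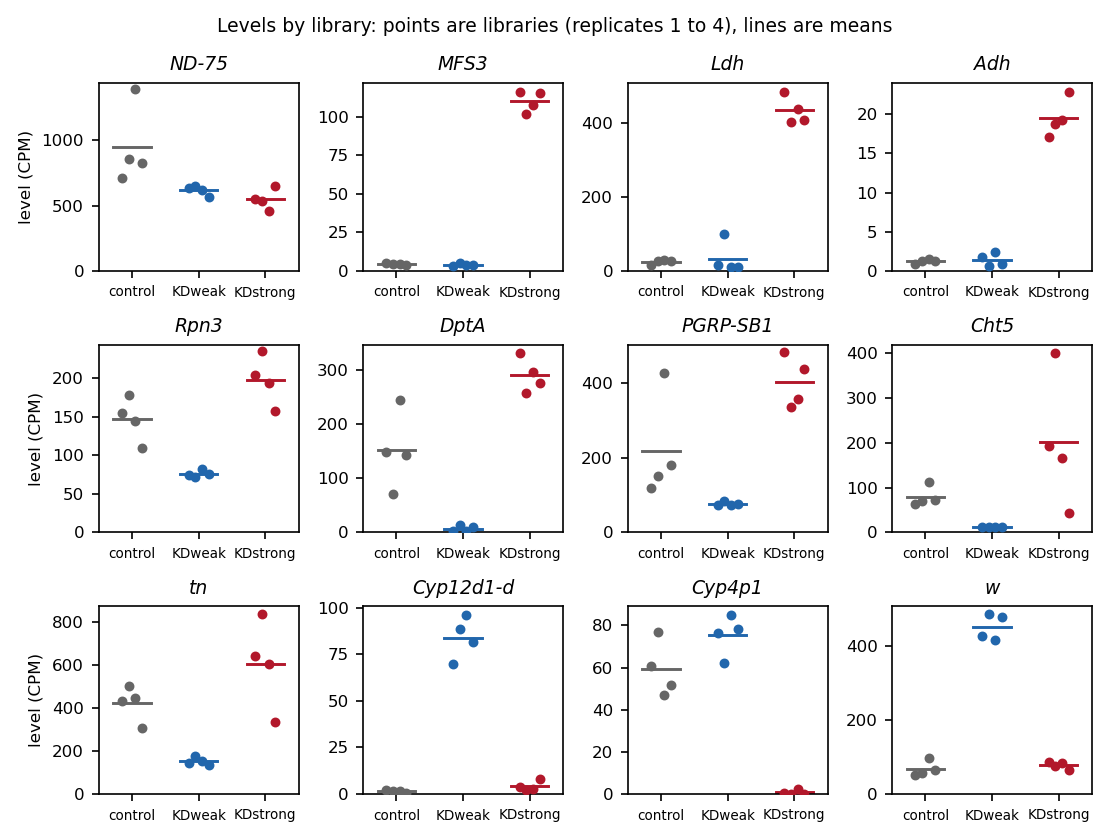
Level in CPM of 12 genes in each library, by group (control grey, KDweak blue, KDstrong red), with each group's mean as a line and the vertical axis from 0. The KDstrong and KDweak points overlap for *ND-75* and for none of the other 11 genes; *Cyp12d1-d*, *Cyp4p1* and *w* are the genes shown that were lower in KDstrong.

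Of 23 glycolysis and sugar transport genes tested, 5 were higher (21.7%, against 8.18% of all features) and none was lower. The 5 were *MFS3*, *Ldh*, *Gapdh2* (glyceraldehyde 3-phosphate dehydrogenase, log2 fold change 0.57), the sugar transporter *sut1* (0.53) and the aldolase *Ald1* (0.45). The calls of these last 3 genes were each lost when 4 or 5 of the 8 libraries were left out in turn, so that the count was 2 without KDstrong replicate 1 or KDweak replicates 1, 3 or 4, and 10 without both libraries that stood apart. The lower count was 3 without KDstrong replicate 4 and 4 without both. *Rpi* (0.81) and *Pgls* (0.72), enzymes of the pentose phosphate pathway, were higher among 7 tested (28.6%), and their calls were also lost in 4 and 5 of those fits. Of 22 TCA cycle genes only *ScsbetaG*, a succinyl-CoA synthetase subunit, was higher (0.48, adjusted p = 0.0462, lost in 6 of 8). That is 4.55%, against 8.18% of all features, and 3 TCA cycle genes were lower without KDstrong replicate 4 or without both libraries. *Pepck2*, a phosphoenolpyruvate carboxykinase of gluconeogenesis that was named after its values were seen, was higher in KDstrong than in KDweak by 1.26 ± 0.15, and both groups lay above the control (148.9, 61.5 and 13.6 CPM on average).

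Other features with very small p-values came from varied functions. *CG11313* (3R:30729837-30731165), a gene with an annotated trypsin domain and no other name in the files, had 47.8, 39.4, 38.7 and 97.9 CPM in KDstrong and between 0.0348 and 0.137 CPM in KDweak. It was close to absent from KDweak and from the control (0.067 CPM on average), and its log2 fold change of 9.08 ± 0.48 was the largest increase measured. *Dgp-1*, a GTP-binding protein gene, had 293, 229, 214 and 302 CPM in KDstrong and between 50.2 and 59.3 CPM in KDweak, a log2 fold change of 2.26 ± 0.14 (adjusted p = 1.65e-05). The small nucleolar RNA host gene *Uhg1* was higher by 2.16 ± 0.13. *CG5254* (1.55 ± 0.10) and *AANATL2* (an arylalkylamine N-acetyltransferase-like gene, 1.93 ± 0.13) were also higher than in KDweak, but KDstrong was at the control level for both (means of 148.97 against 149.74 CPM, and 19.2 against 19.7 CPM). For these genes KDweak was the group away from the control, whereas for *MFS3*, *Ldh*, *Adh*, *Dgp-1* and *CG11313* it was KDstrong.

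Genes of the proteasome were higher in KDstrong almost without exception. The 26S proteasome degrades ubiquitylated proteins and consists of a 20S core of alpha and beta rings and a 19S cap with ATPase (Rpt) and non-ATPase (Rpn) subunits. All 7 alpha, all 7 beta, all 6 Rpt and all 12 Rpn subunits tested were higher in KDstrong, by 0.58 to 1.38 on the log2 scale. With the 6 testis-type or duplicate paralogs that could be tested, 33 of 38 members were higher and 1 was lower, against 8.18% and 3.09% of all features. The median log2 fold change was 0.93, against 0.016 over all features. Between 32 and 33 were higher under each of the 18 alternatives. *Rpn3* (2L:19051790-19053681), a subunit of the 19S lid, had 205, 236, 194 and 157 CPM in KDstrong and 74.1, 72.1, 82.7 and 76.2 CPM in KDweak. The groups were well separated and the KDweak libraries lay close together. Its log2 fold change was 1.37 ± 0.14 (adjusted p = 0.000243). *Rpn11*, the deubiquitinase of the lid, was higher by 1.25 ± 0.12, *Rpn12* by 1.23 ± 0.13, and the core subunits *Prosalpha5* and *Prosalpha6* by 1.05 ± 0.11 and 0.92 ± 0.095.

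**Figure D3:**
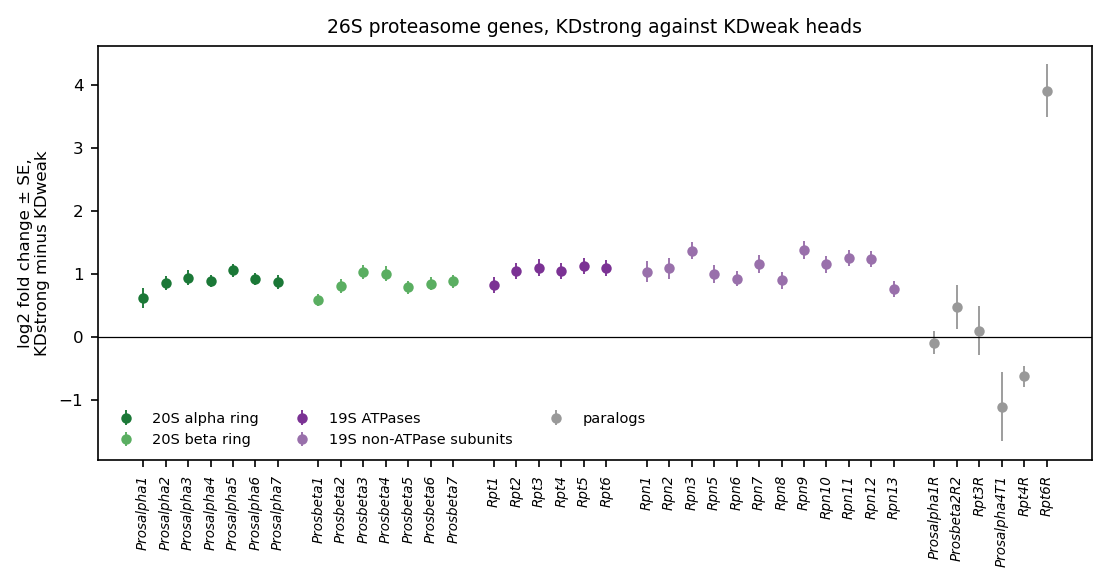
Log2 fold change (KDstrong minus KDweak) of the 38 proteasome genes tested, with the SE as a bar, coloured by part of the complex. All 32 alpha, beta, Rpt and Rpn subunits lie between 0.58 and 1.38, while the grey paralogs spread from -1.11 to 3.91.

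The summed level of the proteasome genes was 4001 to 5376 CPM in KDstrong and 2210 to 2428 CPM in KDweak. The control libraries spread from 2964 to 4933 CPM and overlapped KDstrong but not KDweak. Thus *Rpn3* was lower in KDweak than in the control (log2 fold change -0.92, adjusted p = 0.00571), while KDstrong was 0.42 above it with an adjusted p of 0.433. Of the paralogs, *Rpt4R* was lower (-0.63, a call lost in 5 of 8 leave-one-out fits). *Rpt6R*, chosen after its values were seen, was higher by 3.91 ± 0.42, from 0.156 to 0.452 CPM in KDweak to 2.02 to 5.41 CPM in KDstrong, with a control mean of 3.25 CPM. The genes of both proteasome-bound deubiquitinases, also named after their values were seen, went the same way as the subunits. *Uch-L5* had 41.3, 51.3, 35.4 and 28.7 CPM in KDstrong and 10.7, 8.76, 8.98 and 10.4 CPM in KDweak (2.00 ± 0.18), with no overlap, and *Usp14* was higher by 1.17 ± 0.15.

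Many antimicrobial peptide genes were higher in KDstrong. Flies respond to bacteria with peptidoglycan recognition proteins (PGRPs) that activate Imd signalling, and with Toll signalling, and both induce antimicrobial peptides in the fat body and other tissues. Of 32 antimicrobial peptide and Bomanin genes tested, 18 were higher and 1 was lower (56.2% and 3.12%, against 8.18% and 3.09% of all features), with a median log2 fold change of 1.81. The lower count was 3 without KDweak replicate 2, 2 without KDstrong replicate 1 or 4 and 4 without both libraries that stood apart. Of the 11 peptides of the Imd type 9 were higher (median 3.78), and of the 12 Bomanins, short Toll-induced peptides, 4 were higher. The summed level of the 32 genes and their untested relatives was 2721 to 4218 CPM in KDstrong and 661 to 1153 CPM in KDweak. The groups did not overlap. Of the control libraries (1654 to 4871 CPM), 3 lay between the groups and 1 above both.

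*DptA* (2R:18865765-18866260), which encodes Diptericin A, had 331, 257, 297 and 277 CPM in KDstrong and 1.87, 13.5, 1.81 and 9.64 CPM in KDweak. Replicates 2 and 4 of KDweak were above replicates 1 and 3, yet far below every KDstrong library. The log2 fold change was 5.44 ± 0.63 (adjusted p = 0.000514), and KDweak was 4.49 below the control on the same scale (adjusted p = 0.00236). *Dro*, Drosocin, had 270, 118, 254 and 443 CPM in KDstrong and 8.7, 34.1, 10.5 and 24.5 CPM in KDweak (3.78 ± 0.52). *AttA* had 106, 74.7, 87.5 and 64.1 CPM against 0.592, 3.07, 0.0939 and 2.44 CPM (5.78 ± 0.63). Here too replicates 2 and 4 were the higher ones of KDweak. *AttA* and *AttB* are near-identical neighbours whose reads can be assigned to either, and *AttB* (2.68) lost its call in 1 of 8 leave-one-out fits. *AttD* was higher by 4.57, *BomS1* by 2.13, the Metchnikowin-like gene *Mtkl* by 3.20 and *Drs*, the antifungal peptide Drosomycin, by 3.03. The lower member was *Drsl5*, a Drosomycin-like gene, with 8.79 to 22.7 CPM in KDstrong and 32.6 to 39.4 CPM in KDweak (-1.33 ± 0.28).

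Of 18 recognition genes 6 were higher (33.3%, against 8.18% of all features) and none lower, with 1 lower without KDstrong replicate 4 and 2 without both libraries. *PGRP-SB1* (3L:16727299-16727989), a secreted peptidoglycan-binding protein gene, had 482, 335, 357 and 438 CPM in KDstrong and 74.1, 83.8, 73 and 74.7 CPM in KDweak, and the log2 fold change was 2.39 ± 0.14 (adjusted p = 1.36e-05). *PGRP-SD*, a pattern recognition receptor, was higher by 2.56 ± 0.20, *PGRP-LB*, an amidase that restrains Imd signalling, by 1.32 ± 0.23 and the thioester protein gene *Tep1* by 2.76 ± 0.43. The phagocytic receptor gene *NimC4* had 62.1, 44.4, 42.6 and 51.8 CPM in KDstrong and 3.69, 14.5, 3.88 and 3.38 CPM in KDweak, with KDweak replicate 2 apart from the other 3 (2.99 ± 0.45). Of 29 immune signalling genes 6 were higher (20.7%) and none lower. The higher count was 3 without KDweak replicate 3, and the lower count 1 without KDstrong replicate 4 and 2 without both. Among them were *pirk*, a negative regulator of Imd (1.98, lost in 2 of 8 leave-one-out fits), the infection-induced genes *edin* (5.42) and *IBIN* (4.00), and *key*, the regulatory subunit of the fly IKK complex (0.52).

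Many genes that build and tan the cuticle were higher in KDstrong. Adult cuticle is a chitin matrix with structural proteins that is still deposited, sclerotised and pigmented around and after eclosion. Of 57 cuticle protein genes tested, 28 were higher and 3 lower (median 0.86), of 28 chitin synthesis and turnover genes 14 were higher and none lower (median 0.81), and of 19 tanning and melanin genes 8 were higher and 3 lower. The shares higher were 49.1%, 50% and 42.1%, against 8.18% of all features, and the shares lower 5.26%, 0% and 15.8%, against 3.09%. The lower chitin count was 2 without KDstrong replicate 4 and 4 without both libraries that stood apart. The levels were low for many cuticle protein genes, and 49 of 106 listed did not have enough reads to be tested. The summed level of the cuticle protein genes was 2524 to 3993 CPM in KDstrong and 926 to 2000 CPM in KDweak. KDweak replicate 2 was the high one of its group, the other 3 having 926 to 982 CPM, and KDstrong replicate 4 the low one of its own. The control (2250 to 3332 CPM) lay above all KDweak libraries.

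*Cht5* (3R:13767549-13770732), a chitinase of moulting, had 194, 401, 166 and 44.4 CPM in KDstrong and 12.6, 11.9, 11.8 and 12.9 CPM in KDweak. The spread within KDstrong was wide, with replicate 2 highest and replicate 4 lowest, but no KDstrong library reached down to KDweak. The log2 fold change was 4.03 ± 0.55 (adjusted p = 0.00119), and KDweak was lower than the control by 2.67 (adjusted p = 3.95e-05). *Cht2* (1.20), the chitin-binding proteins *obst-A* (1.88) and *obst-B* (1.50) and the chitin deacetylase-like gene *Cda4* (1.96) were higher too, each with KDstrong wholly above KDweak. Of the structural genes, *Ccp84Ab* had 35.5, 54.3, 51.8 and 17.7 CPM in KDstrong and 3.05, 5.48, 2.78 and 1.95 CPM in KDweak (3.60 ± 0.41). *l(3)mbn* (6.54), *Ccp84Ac* (6.25), *Cpr50Cb* (3.19) and *Cpr62Bb* (0.99) were among the others. In each of them KDstrong lay wholly above KDweak. The lower ones were *TwdlG* (-0.75), *Cpr92A* (-2.85) and *Cpr50Ca* (-2.33), the last 2 at under 1 CPM in all 8 libraries. Of the tanning genes, *yellow-d2* (2.27) and *stw*, the laccase that cross-links cuticle (1.34), were higher, while *PPO2* (-1.10), *PPO1* (-0.75) and *yellow-d* (-0.56) were lower. The calls of *PPO1* and *yellow-d* were each lost in 4 of 8 leave-one-out fits.

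**Figure D4:**
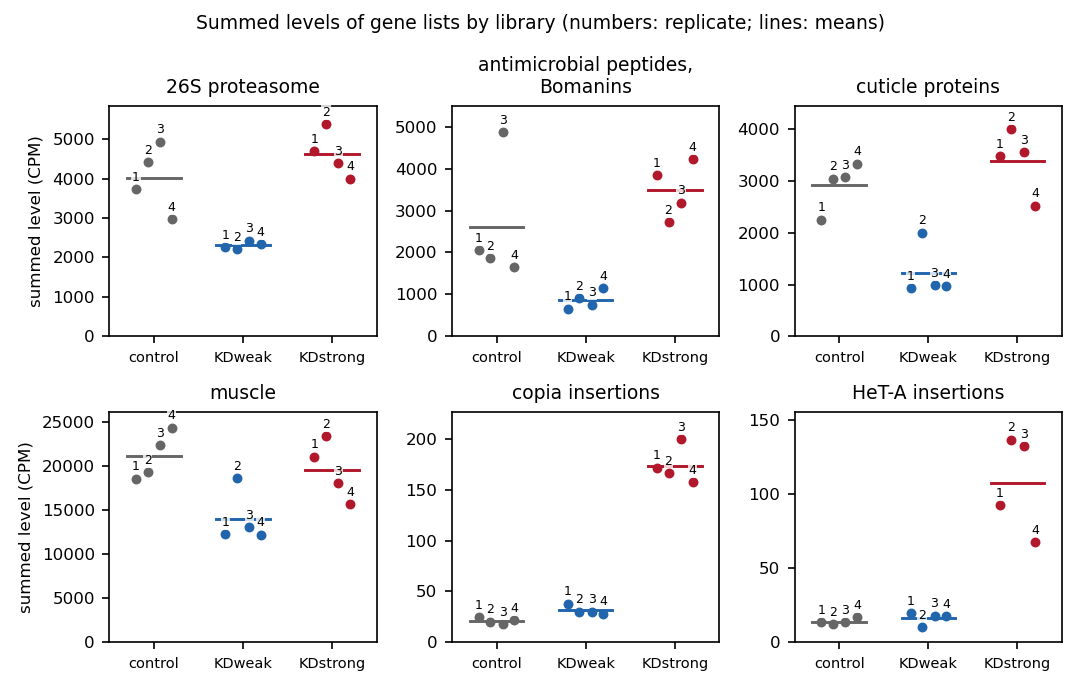
Summed level in CPM of 6 sets of features in each library (control grey, KDweak blue, KDstrong red, digits giving the replicate, lines the means, vertical axes from 0). KDweak lies wholly below KDstrong for the proteasome, immune peptide, cuticle protein, copia and HeT-A sets, and KDweak replicate 2 lies within the KDstrong range for muscle.

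Several genes that stood out among these were not on a list. *dyw*, a gene chosen after its values were seen, had 104, 247, 94.8 and 58.4 CPM in KDstrong and 2.09, 4.86, 2.19 and 1.84 CPM in KDweak, with no overlap (5.54 ± 0.53). Runs of neighbouring genes were called together. In 10 runs at least 4 neighbouring tested features were all higher, and no run of lower features was found. Higher calls were also more frequent over all features (8.18%, against 3.09% lower), and the number of runs to expect from this was not tested. The longest run held 9 genes on 3L (4446573 to 4500500), from *CG12607* to *CG13720*, each higher by 2.11 to 5.64. In that run *CG13722* had 184, 311, 200 and 59.9 CPM in KDstrong and 9.47, 35.9, 7.48 and 10.3 CPM in KDweak. As for *Cht5*, KDstrong replicate 4 was the lowest of its group, and KDweak replicate 2 the highest of its own. A run of 5 at 16277435 to 16307205 on the same arm included *CG13065* (5.53), 1 at 6692732 to 6704903 on 3R held *Ccp84Aa* to *Ccp84Ad*, and 1 at 2815970 to 2847212 on 2L held *Duox*, an NADPH oxidase (1.23), with 4 neighbours. *Dro*, *AttA*, *AttB* and *Rpn6* were a run of 4 on 2R. Neighbours that overlap cannot be told apart, because the library kit does not mark the strand.

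Called muscle genes were higher, and most called hemocyte genes were lower. Of 25 muscle genes tested, 8 were higher (32.0%, against 8.18% of all features) and none lower (median 0.47). *tn*, a muscle TRIM protein gene, had 641, 840, 605 and 334 CPM in KDstrong and 145, 174, 154 and 135 CPM in KDweak, with no overlap (1.99 ± 0.25). The control lay between the groups (422 ± 84 CPM). The troponin C gene *TpnC47D* was higher by 3.39 ± 0.50. *Mlc2*, a myosin light chain, was higher by 0.70, a call lost in 5 of 8 leave-one-out fits. The muscle count rested on single libraries: it was 13 without KDweak replicate 2, 2 without KDweak replicate 1, 3 or 4 or KDstrong replicate 1 or 2, and 18 without both libraries that stood apart. In KDweak replicate 2 the summed level of the list was 18617 CPM, against 12193 to 13083 CPM in the other KDweak libraries and 15661 to 23323 CPM in KDstrong. Of 15 hemocyte and prophenoloxidase genes 4 were lower, namely *PPO1*, *PPO2*, the clotting factor gene *Hml* (-0.74) and peroxidasin, *Pxn* (-0.53), and 1 was higher, *NimC4*. The lower share was 26.7%, against 3.09% of all features, and the lower count was 6 without KDstrong replicate 1 or 4 or without both libraries.

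Fat body genes were divided. Larval storage proteins and their receptors, which the fat body makes before metamorphosis, were higher, although at low levels. *Fbp2* had 7.77, 20.8, 12 and 5.45 CPM in KDstrong and at most 0.182 CPM in KDweak, where replicates 3 and 4 had 0 (7.73 ± 0.75). *Fbp1* (5.69), *Lsp1gamma* (4.92) and *Lsp1alpha* (2.83) were higher as well. In contrast, *to*, a fat body gene linked to feeding and the circadian clock, had 48.1, 34.2, 34.7 and 46.3 CPM in KDstrong and 234, 36.8, 257 and 226 CPM in KDweak. KDweak replicate 2 fell within the KDstrong range, and the log2 fold change was -2.22 ± 0.47 (adjusted p = 0.0127). *Apoltp*, a lipid transfer particle gene, was lower by a log2 fold change of -0.51, a call lost in 6 of 8 leave-one-out fits. Of 13 storage and yolk genes 4 were higher and 2 lower (30.8% and 15.4%, against 8.18% and 3.09% of all features). The lower count was 7 without KDstrong replicate 4 or without both libraries, and 1 without any other single library except KDstrong replicate 2. The summed level of that list was 28848 to 71799 CPM in KDstrong, with replicate 4 highest, and 50126 to 72111 CPM in KDweak, so the groups overlapped. Of 29 lipid genes, the lipase gene *mag* (4.85) and the fatty acid synthase gene *FASN2* (2.03) were higher, and *FASN1* (-0.71), the lipid-sensing nuclear receptor *Hnf4* (-0.70) and the acyl-CoA synthetase *Acsl* (-0.46) were lower. The lipid shares were 6.9% higher, near the 8.18% of all features, and 10.3% lower, against 3.09%. *FASN1* and *Acsl* lost their calls in 4 and 6 of 8 leave-one-out fits. The lower lipid count was 7 without KDstrong replicate 4, 1 without KDstrong replicate 1 or 3 or KDweak replicate 1, and 9 without both libraries.

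Cytochrome P450 genes were more often lower than higher in KDstrong. These monooxygenases act on hormones, lipids and foreign compounds. Of 79 tested, 16 were lower and 8 higher, against 3.09% and 8.18% of all features, although the median was only -0.12, and 28 were lower without both libraries that stood apart. *Cyp12d1-d* (2R:11123658-11125647), a mitochondrial P450, had 3.71, 2.19, 2.41 and 8.14 CPM in KDstrong and 69.6, 88.5, 96.1 and 81.4 CPM in KDweak. KDstrong was near the control (1.43 ± 0.71 CPM), and KDweak alone was high. The log2 fold change was -4.38 ± 0.38 (adjusted p = 0.000111). The related gene *Cyp12d1-p* was not called (-0.32, adjusted p = 0.533), at 36.0 CPM on average in KDstrong and 44.6 CPM in KDweak. Whether reads were shared between these genes was not tested. *Cyp4p1* (2R:9240041-9242139) gave the opposite picture to *Cyp12d1-d* against the control. It had 0.324, 0.0429, 2.39 and 0.0395 CPM in KDstrong and 76.3, 62.4, 85 and 78.4 CPM in KDweak, where the control had 59.2 ± 13.1 CPM, so that KDstrong was the group apart (-6.59 ± 0.73, adjusted p = 0.000423).

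*Cyp6w1* had 767, 395, 436 and 677 CPM in KDstrong and 1640, 908, 1948 and 1357 CPM in KDweak (-1.37 ± 0.27), and *Cyp6a2*, associated with insecticide resistance, was lower by a log2 fold change of -1.69 ± 0.29. The groups did not overlap in either, and both were named after their values were seen. *Cyp4d20* (-1.46), *Cyp4ac2* (-1.87) and *Cyp6a20* (-0.74) were lower too. *Cyp4e3* was the clearest exception, with 121, 156, 289 and 184 CPM in KDstrong and 50.9, 31, 35.3 and 39 CPM in KDweak (2.25 ± 0.27). *Cyp316a1* (2.64) and *Cyp28a5* (0.65) were also higher. Of 24 UDP-glycosyltransferases, which conjugate such compounds to sugars, 5 were lower, among them *Ugt35E2* (-2.48) and *Ugt35C1* (-1.53), and 2 were higher (20.8% and 8.33%, against 3.09% and 8.18% of all features, the latter being near). That lower count was 3 without KDstrong replicate 2 or KDweak replicate 1 or 3, and 8 without both libraries. The higher count was 0 without KDstrong replicate 1 or KDweak replicate 1, 2 or 4 and 1 without KDstrong replicate 2 or 3 or KDweak replicate 3. Of 33 glutathione S-transferases 3 were higher, *GstT4* (0.82) among them, a share of 9.09% that is near the background of 8.18%. Of the same genes 3 were lower (9.09%, against 3.09% of all features). That count was 8 without both libraries and 0 to 6 in the leave-one-out fits (0 without KDstrong replicate 2 or KDweak replicate 1, 3 or 4, 1 without KDstrong replicate 3 and 6 without KDstrong replicate 4). The peroxiredoxin *Prx6b* was higher by 1.96 ± 0.19.

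Outside these families, several genes and noncoding RNAs were lower by large factors. *w* (X:2790599-2796466), the white eye pigment transporter gene, had 85.1, 75.1, 83.9 and 63.3 CPM in KDstrong and 427, 485, 415 and 477 CPM in KDweak (-2.56 ± 0.13, adjusted p = 7.35e-06). Only KDweak was above the control (67.2 ± 21.2 CPM). A shortened copy of *w* is the usual marker of RNAi transgenes of the KK collection, and reads of that copy and of the gene itself cannot be told apart here. The yellow gene *y* was higher in KDstrong by 0.87 ± 0.18 (6.86 against 3.74 CPM on average), a call lost in 1 of 18 alternatives. Per the strain list of the study, the HMS00853 transgene carries *y* and *v* as markers. Reads of these copies and of the genes themselves cannot be told apart either. *tio*, a gene beside a landing site of KK transgenes, had a log2 fold change of 0.18 ± 0.20 (adjusted p = 0.644). *v*, the other marker of the HMS transgene, had 41.2, 38.9, 33.7 and 87 CPM in KDstrong and 73.2 to 88.1 CPM in KDweak (-0.73 ± 0.26, adjusted p = 0.11). The high library was KDstrong replicate 4, and without it *v* was lower in KDstrong (-1.14, adjusted p = 0.000106). *hoka*, a septate junction protein gene, had 0.0294, 0.0858, 0.19 and 0.198 CPM in KDstrong and 4.42, 4.92, 3.75 and 5.6 CPM in KDweak. KDweak was near the control (4.75 CPM on average), and KDstrong was nearly without reads (-5.18 ± 0.38). The noncoding RNA *lncRNA:CR46123* had no read in any KDstrong library and 2.73, 3.17, 1.31 and 2.78 CPM in KDweak, at least 93.9-fold lower if the KDstrong group is set to 3 counts, and it was 0 in the control as well. *CG18095* (-5.04) and its neighbour *lncRNA:CR45284* (-6.89) on 2L were likewise close to 0 in KDstrong and in the control. *CG16898* (-2.44) and *CG13026* (-1.30) were lower at higher levels.

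None of 27 genes of neuronal identity and synapse and none of 16 glial genes was called with edgeR, where 1 and 2 had an unadjusted p below 0.05, and DESeq2 called 0 and 1. Without KDstrong replicate 4, 1 neuronal gene was higher and 1 glial gene lower. Without both libraries that stood apart, edgeR called 3 neuronal genes higher and 1 lower, and 2 glial genes higher and 1 lower. Of 34 neuropeptide genes 5 were higher and 9 lower (14.7% and 26.5%, against 8.18% and 3.09% of all features). *Proc*, the precursor of proctolin, had 128, 118, 127 and 130 CPM in KDstrong and 50, 49.8, 54.4 and 53.1 CPM in KDweak. Both groups were tight and apart, with KDweak at the control level of 47.9 ± 4.13 CPM (1.27 ± 0.088, adjusted p = 2.8e-05). *SIFa* (0.76) was higher and so were *FMRFa* (0.59), *AstCC* (1.50) and the eclosion hormone gene *Eh* (0.65), whose calls were lost in 1, 5 and 7 of 8 leave-one-out fits. *Mip* had 19.5, 21.3, 23.8 and 20.5 CPM in KDstrong and 38.8, 30.8, 40.1 and 39.1 CPM in KDweak (-0.82 ± 0.12), without overlap.

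The nutrient-linked peptide *CCHa2* was lower by a log2 fold change of -1.47, the circadian peptide *Pdf* by one of -0.56, *AstA* by -0.43 and the satiety peptide *Dsk* by -1.01, the last 2 lost in 5 and 6 of 8 fits. The neuropeptide counts fell to 3 higher and 3 lower without KDstrong replicate 1 or 2 or KDweak replicate 1, 3 or 4, and 15 were lower without both libraries that stood apart. Of 35 odorant-binding proteins 7 were higher, such as *Obp83g* (1.92) and *Obp56a* (1.60), a count of 12 without both libraries, and 1 was lower (20.0% and 2.86%, against 8.18% and 3.09%), a count of 3 without KDstrong replicate 4 and 6 without both. The lower gene was *Obp99b*, with 60.8, 63.8, 51.1 and 72.5 CPM in KDstrong and 281, 161, 248 and 266 CPM in KDweak (-1.95 ± 0.18). Of 24 photoreceptor genes only the rhodopsin *ninaE* was lower (-0.51, lost in 5 of 8 leave-one-out fits). That share, 4.17%, is near the 3.09% of all features, and 3 photoreceptor genes were lower without KDstrong replicate 4 and 5 without both libraries.

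Chaperone genes varied widely between the pools of a group. Of 23 heat shock and chaperone genes 4 were higher and 1 lower (17.4% and 4.35%, against 8.18% and 3.09% of all features). The small heat shock protein gene *Hsp67Bc* was higher by 1.20 ± 0.15, and *Hsp23* by 1.23 ± 0.27 (lost in 2 of 8 leave-one-out fits). *Hsp70Ab* had 9.19, 39.7, 37 and 49.9 CPM in KDstrong and 1.46, 10.3, 1.22 and 1.78 CPM in KDweak. KDweak replicate 2 exceeded KDstrong replicate 1, and the call (3.24 ± 0.74, adjusted p = 0.0176) was lost in 3 of 8 leave-one-out fits, as was that of *Hsp70Aa* (3.72). The Hsp70 copies are near-identical, so reads may be split among them. Both were almost silent in the control (0.36 and 0.064 CPM on average). *Hsp26* had 35.2, 49.5, 64 and 165 CPM in KDstrong and 10.9, 67.6, 7.17 and 23.3 CPM in KDweak (1.51 ± 0.69, adjusted p = 0.218). Without KDweak replicate 2 it was 2.50 (adjusted p = 0.0242), and *Hsp68* went from 0.44 (adjusted p = 0.644) to 1.22 (adjusted p = 0.0337). The count of higher chaperones was 10 without that library, 12 without both, 2 without KDweak replicate 3 and 1 without KDweak replicate 1 or 4. The lower one was *Hsc70-2*, at 0.109 to 0.618 CPM in KDstrong and 1.82 to 3.22 CPM in KDweak (-2.85 ± 0.44). The heat-inducible noncoding RNA *lncRNA:Hsromega* was higher by 1.34 ± 0.18, with no overlap.

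Genes of stress pathways tied to mitochondria and to the endoplasmic reticulum were examined next. The ATF4 gene *crc* had 373, 325, 321 and 420 CPM in KDstrong and 365, 378, 319 and 353 CPM in KDweak. The ranges overlapped almost fully (0.01 ± 0.12, adjusted p = 0.967). These are levels of mRNA, and ATF4 protein was not measured in these libraries. By antibody staining, the paper reported ATF4 activation with the strong but not the weak line. Of 20 genes linked to ATF4, 2 were higher, *Ldh* and the folate enzyme gene *pug* (0.74, lost in 5 of 8 leave-one-out fits). That is 10.0%, near the 8.18% of all features, and the count was 1 without KDstrong replicate 3 or KDweak replicate 1, 2 or 3. The summed level of the 20 genes, *Ldh* among them, was 4862 to 7536 CPM in KDstrong and 4205 to 4351 CPM in KDweak, without overlap. The control spanned 4038.5 to 6351 CPM. Of 24 genes of the unfolded protein response of the endoplasmic reticulum 1 was higher (4.17%, against 8.18% of all features), the nucleotide exchange factor *Sil1* (0.47, lost in 7 of 8). Among 32 nuclear complex I subunits none was called with edgeR, with 2 at an unadjusted p below 0.05 and none called by DESeq2, and among 13 subunits encoded in mitochondrial DNA none was called, with 2 at an unadjusted p below 0.05 and 1 called by DESeq2. Of 34 nuclear subunits of complexes II to V, 1 was higher (2.94%, against 8.18% of all features). It was *COX7AL* (3.30 ± 0.36), at 1.20 to 2.06 CPM in KDstrong and 0.051 to 0.188 CPM in KDweak. Of 72 mitochondrial ribosomal proteins 2 were higher (2.78%, against 8.18% of all features). That count was 4 without KDstrong replicate 3, 0 without KDstrong replicate 1 or KDweak replicate 3 or 4, and 1 without any other single library or without both that stood apart.

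Of 30 genes of TOR signalling and its regulators, *melt* (1.14) and *REPTOR* (0.67, lost in 6 of 8 leave-one-out fits) were higher and *Iml1* was lower. These shares, 6.67% and 3.33%, are near the 8.18% and 3.09% of all features. The higher count was 4 without KDstrong replicate 4, 5 without both libraries that stood apart, and 1 without any other single library except KDweak replicate 2. *Iml1* (3L:1523414-1534034) encodes a subunit of the GATOR1 complex, which restrains TOR when amino acids are scarce. It had 57, 57.8, 65 and 51 CPM in KDstrong and 139, 134, 138 and 127 CPM in KDweak, with KDstrong at the control level (62.2 ± 13.5 CPM) and KDweak above it in every library (-1.23 ± 0.11, adjusted p = 0.000115). Of 86 cytoplasmic ribosomal proteins only *RpS10a*, a low-level paralog, was called (2.61). That result depended on the libraries that stood apart, since 17 were lower without KDstrong replicate 4 and 48 without both. The stress peptide gene *TotX* was lower (-2.44 ± 0.23), with 5.67 to 11.8 CPM in KDstrong and 36.2 to 50 CPM in KDweak, and so was *daw*, an activin-like ligand gene named after its values were seen (-1.16 ± 0.13).

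**Figure D5:**
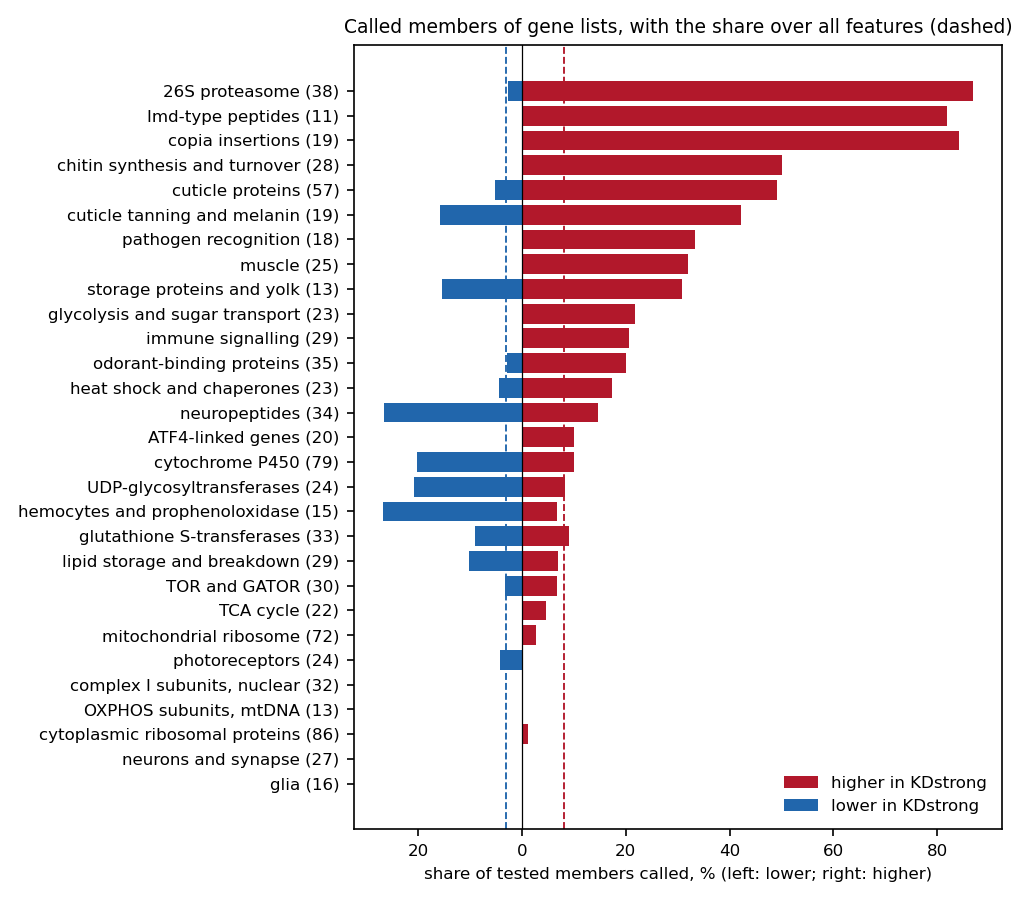
Share of the tested members of each gene list that was higher (red, to the right) or lower (blue, to the left) in KDstrong at an adjusted p below 0.05, in percent, with the number tested in brackets. Dashed lines mark the shares over all features, 8.18% higher and 3.09% lower; the proteasome, Imd-type peptide and copia bars reach over 80%, and the bars of neuronal, glial and complex I genes are empty.

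Transposable element insertions were counted as features of their own in the deposited table. Of 426 tested, 47 were higher and 19 lower, or 11.0% and 4.46%, which are near the 8.18% and 3.09% of all features. DESeq2 gave 71 and 50, no filter on low counts 69 and 33, and a minimum of 1 CPM in 4 libraries 34 and 12. Of the higher insertions, 16 were copia and 10 HeT-A. Copia is a retrotransposon with long terminal repeats, and HeT-A retrotransposons maintain the ends of fly chromosomes. Of 19 copia insertions 16 were higher and none lower (median 2.73), and of 14 HeT-A insertions 10 were higher and none lower (median 1.64). The HeT-A count was 6 without KDstrong replicate 1, 2 or 3. The summed copia level was 157 to 199 CPM in KDstrong, 28.2 to 38.0 CPM in KDweak and 17.7 to 25.1 CPM in the control. For HeT-A the sums were 67.8 to 137 CPM in KDstrong, 10.3 to 19.9 CPM in KDweak and 12.4 to 16.8 CPM in the control. KDstrong lay above both other groups in both families. Copies of one family share sequence, so which copy a read came from is uncertain and the sum is the safer measure.

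The insertion *copia{}631* on 2R (5217753 to 5222897) had 27.4, 22.5, 29.8 and 27 CPM in KDstrong and 1.09, 0.563, 1.06 and 1.08 CPM in KDweak (4.77 ± 0.19, adjusted p = 1.05e-06). *HeT-A{}5504* near the tip of the X chromosome (114047 to 116407), in a run of 5 called HeT-A insertions, had 40.1, 66.4, 60.8 and 30.9 CPM in KDstrong and between 0.0626 and 0.228 CPM in KDweak (8.66 ± 0.41). For both, the control (0.55 and 0.19 CPM on average) was on the side of KDweak. *ZAM{}RR48383* went the other way, with 0.589, 1.24, 0.407 and 0.514 CPM in KDstrong, 24.6, 8.81, 25.5 and 13.8 CPM in KDweak and 0.048 CPM on average in the control (-4.77 ± 0.44). *hopper{}762* had no read in KDstrong and 0.661 to 0.876 CPM in KDweak, at least 29.2-fold lower when the KDstrong group is set to 3 counts. The insertions present in the flies of each strain were not known, and their part in these differences was not tested.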

How the data were processed

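RNA from pooled heads was sequenced as paired reads after library preparation with a kit that does not mark the strand. The authors deposited, for each pair of groups, raw counts and FPKM values per gene or transposable element insertion. Reads had been handled with fastp, HISAT2 and featureCounts, and groups compared with DESeq2, per the submitters' processing notes (versions not given in the sources used here). Coordinates are those of release 6. Fold changes and p-values of the authors' own comparisons are in the same tables and were not used, nor were 40 per-library columns of values repeated or not needed here. The deposited FPKM values served only for medians of level per length. Counts of a library were identical wherever 3 tables repeated them.

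Features were filtered with filterByExpr (minimum count 10, minimum total 15), normalised by TMM and tested with edgeR's quasi-likelihood test (edgeR 4.0.16, limma 3.58.1, R 4.3.3) on the 8 libraries, with Benjamini-Hochberg adjustment over all 10638 features and a threshold of 0.05 without a fold limit. A positive log2 fold change means higher in KDstrong. CPM were scaled by TMM over all 12 libraries, and sums over a list include members too low to test. Control comparisons were fitted in the same way, share their knockdown libraries with this comparison, and are given only as values beside it. The code was tested on simulated data. Symbols came from a table of current names, and 59 identifiers had none. DESeq2 1.42.0 was an alternative. Tables and plots were made with pandas 2.3.3, numpy 2.4.6 and matplotlib 3.10.9 under Python 3.11.15.

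The genes and lists were chosen with earlier results of these data known. Named genes were, in each direction, the 15 features with the smallest p among called ones with no overlap and a log2 fold change of 1 or more in size, up to 5 called members per list and direction, members of runs of at least 4 neighbouring features, *ND-75*, *crc*, transgene markers and genes the study names. *Uch-L5*, *Usp14*, *Rpt6R*, *Pepck2*, *daw*, *Cyp6w1*, *Cyp6a2*, *dyw* and *Drs* were added after their values were seen, and the cytochrome P450 reductase gene, which a name pattern had put into the cuticle list, was taken out of it then. The alternatives were DESeq2, RLE size factors, total counts, other filters, protein-coding genes alone, all 12 libraries in 1 fit, a replicate block and leaving out each library, and 2 were added after the data were seen: leaving out both KDstrong replicate 4 and KDweak replicate 2, and removing the trend with feature length.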

Additional observations from a re-analysis of the deposited data

Results flagged for a closer look

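In 282 groups of 4 libraries (141 genes named or followed here, in 2 groups each), 25 held a highest or lowest library whose gap to its neighbour was, as a share of the group's range, over Dixon's critical value for groups of that size, where chance flags about 1 group in 20. Of these, 20 were KDweak replicate 2, which stood apart on the third principal component.

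In KDweak replicate 2, the levels set apart above the other 3 libraries, by the gap as a share of the range, were those of *Ldh* (98.6 CPM), the immune genes *AttD* (1.54 CPM), *PGRP-SB1* (83.8 CPM, against 73 to 74.7 CPM) and *NimC4* (14.5 CPM), the cuticle genes *Cht2* (40.6 CPM), *Cda4* (17.6 CPM) and *yellow-d2* (23.7 CPM), the lipid genes *FASN2* (8.04 CPM) and *Hnf4* (190.3 CPM), the muscle gene *Mlc2* (2183 CPM), *Hsp70Ab* (10.3 CPM), *Hsp70Aa* (2.46 CPM), *dyw* (4.86 CPM), *CG13722* (35.9 CPM) and *CG13065* (2.25 CPM). All but *Hnf4* were called higher in KDstrong, so in this library they lay towards KDstrong. Set apart below the other 3 were *Lsp1alpha* (0.819 CPM), *to* (36.8 CPM, against 226 to 257 CPM), *Mip* (30.8 CPM), *copia{}631* (0.563 CPM) and *COX7AL* (0.051 CPM). *to* and *Mip* again lay towards KDstrong, and the other 3 away from it.

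Of the other libraries, KDstrong replicate 4 was set apart above its group for *v* (87.0 CPM, within the KDweak range) and *CG11313* (97.9 CPM), KDstrong replicate 3 for *Cyp4p1* (2.39 CPM), KDstrong replicate 1 for *Cyp6a2* (242.6 CPM) and KDweak replicate 4 for *IBIN* (0.627 CPM). Of these calls, those of *Hsp70Ab*, *Hsp70Aa* and *Mlc2* were lost in 3, 3 and 5 of the 8 fits that left out 1 library.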

How the results depend on the processing

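Over 18 alternatives, 108 of the 141 genes followed kept their direction and their side of the threshold under each, and only *crc*, which was not called, turned sign. The higher count ranged from 597 to 1037 and the lower count from 189 to 651 when 1 library was left out. DESeq2 gave 1087 higher and 599 lower features, which included 867 and 328 of those called here. Removing the trend with feature length gave 1044 and 601, and leaving out both KDstrong replicate 4 and KDweak replicate 2 gave 1394 and 932, with 28 P450 genes lower in place of 16; both were chosen after the data were seen. The cause of these differences was not tested. Other scalings, filters, protein-coding genes alone and all 12 libraries in 1 fit left the counts within 744 to 944 higher and 291 to 382 lower. The log2 fold change of *crc*, 0.01, was -0.011 with DESeq2, -0.018 with RLE factors, -0.0024 with 12 libraries, -0.024 without both libraries and -0.073 to 0.050 without 1 library.

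Replicate numbers are shared by the groups, but same-numbered libraries did not deviate together (correlations -0.012, 0.075, -0.144 and 0.136), so the numbers are not taken as pairs. A replicate block gave 829 higher and 298 lower features. Features with too few reads to pass the filter (minimum count 10) were not tested, and a change in them would not have been detectable. Passing the filter did not require reads in each group. Among the called features, 3 higher ones had no read in any KDweak library, and 4 lower ones had none in any KDstrong library.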

Other observations

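The direction of a difference from the control varied between called genes. Among the genes lower in KDstrong, *Gk2*, a glycerol kinase gene, had 70.5, 70.7, 68.3 and 80.4 CPM in KDstrong and 133.8, 112.7, 120.6 and 113.6 CPM in KDweak, with the control at 81.1 ± 12 CPM, so KDweak was the group away from the control (-0.74 ± 0.10, adjusted p = 0.00119). Among those higher, *nebu*, the gene nebulosa, had 455, 463, 532 and 479 CPM in KDstrong and 257, 255, 273 and 240.2 CPM in KDweak, with the control at 305 ± 33 CPM and KDstrong the group away from it (0.90 ± 0.10, adjusted p = 0.000488). Both genes were chosen after their values were seen, and neither pattern bears on a cause.

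Calls were also counted by annotated protein domain, in families that share members with the lists above. The families named next are a selection with high shares from many domains counted. Of 18 lipase genes tested 6 were higher (33.3%) and 1 lower (5.56%). Of 11 genes with the major royal jelly protein domain, the family of *yellow*, 6 were higher (54.5%) and 1 lower (9.09%). Of 61 genes of the major facilitator superfamily 13 were higher (21.3%) and 5 lower (8.2%), against 8.18% and 3.09% of all features. Other domains had no such share, and of 143 protein kinase domain genes 0 were higher and 6 lower. Among transposable elements, 4 of 6 Stalker2 insertions tested were higher (66.7%). The summed Stalker2 level was 12.6 to 17.9 CPM in KDstrong, 6.61 to 8.52 CPM in KDweak and 12.6 to 27.5 CPM in the control. KDweak thus lay below the control, and KDstrong overlapped it, unlike copia and HeT-A. Of 148 INE-1 insertions 1 was higher (0.676%) and 3 were lower (2.03%).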
